A study of Mus musculus with 6 samples.

Results

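The genes described here are 8 liver-enriched transcription factor genes outside the nuclear receptor superfamily, namely Cebpa, Cebpb, Foxa1, Foxa2, Foxa3, Onecut1, Onecut2 and Prox1. They were chosen by gene symbol from a list of liver-enriched factors, and they are 8 of the 53599 genes in the count table and 8 of the 12691 genes with enough counts to be tested. Bulk RNA-seq was performed on hepatocytes of male Rosa-LSL-Cas9-EGFP mice on a C57BL/6J background, which the study's methods give as 4 to 8 weeks old in its experiments with added Sox4. The Sox4 group (n = 3) received AAV8-TBG-HA-Sox4-P2A-Cre, an adeno-associated virus that expresses HA-tagged mouse Sox4 and Cre. The empty vector group (EV, n = 3) received AAV8-TBG-Cre. Both groups therefore carried Cre, and with it the Cas9-EGFP cassette that Cre switches on, and both vectors were driven by the hepatocyte promoter TBG. Cells were collected 4 days after injection by liberase digestion and enriched on Percoll, without sorting for EGFP, so hepatocytes that took up no virus may be included. The study asked how the SOX4 pioneer factor alters hepatocyte identity.

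Hepatocyte genes are switched on by a small network of factors that bind one another's genes and the same enhancers. FOXA proteins are pioneer factors, which can bind nucleosomal DNA and open it for others. C/EBPα and C/EBPβ are basic leucine zipper factors that drive metabolic and acute phase genes of the mature liver, ONECUT factors (HNF6 and its paralogue) act in both hepatocyte and biliary development, and PROX1 is a homeodomain factor needed for hepatoblast migration and hepatocyte fate. SOX4 belongs to the SOXC group of HMG-box factors, whose core recognition sequence is ACAAAG.

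Libraries held 15090629 to 16964860 counts, and Sox4 itself had 0 to 3 counts in EV libraries and 11816 to 21697 in Sox4 libraries. Changes were tested with the edgeR quasi-likelihood test on TMM-scaled counts, with p-values adjusted over all tested genes and a threshold of 0.05. Levels are counts per 1e+06 counts of the TMM-scaled library (CPM), as mean ± SD over 3 libraries. Across all tested genes 55.1% passed the threshold, 29.0% higher and 26.0% lower in Sox4, so a pass is common in this comparison. Defining hepatocyte markers were abundant in every library, and none of the 7 was at 0. Their summed level was 110644 to 132543 CPM in EV libraries and 78223 to 89569 in Sox4 libraries. Of the 7 markers, 5 passed as lower and none as higher, with a median log2 fold change of -1.35.

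Among the 8 factors, 4 were higher in Sox4 (Foxa1, Foxa3, Onecut2 and Prox1), 2 were lower (Cebpa and Cebpb) and 2 did not pass (Foxa2 and Onecut1). The 6 of 8 that passed stand beside 55.1% of all tested genes, and the count is not a result about the factors as a group. Of the 8, 6 had no overlap between the groups, against 63.0% of tested genes. A change of at least 2-fold past the threshold was seen for 4 of 8 (Foxa1, Prox1, Cebpa and Cebpb), against 28.4% of tested genes. The families moved in different directions, as both C/EBP genes fell while no FOXA gene fell.

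**Figure D1:**
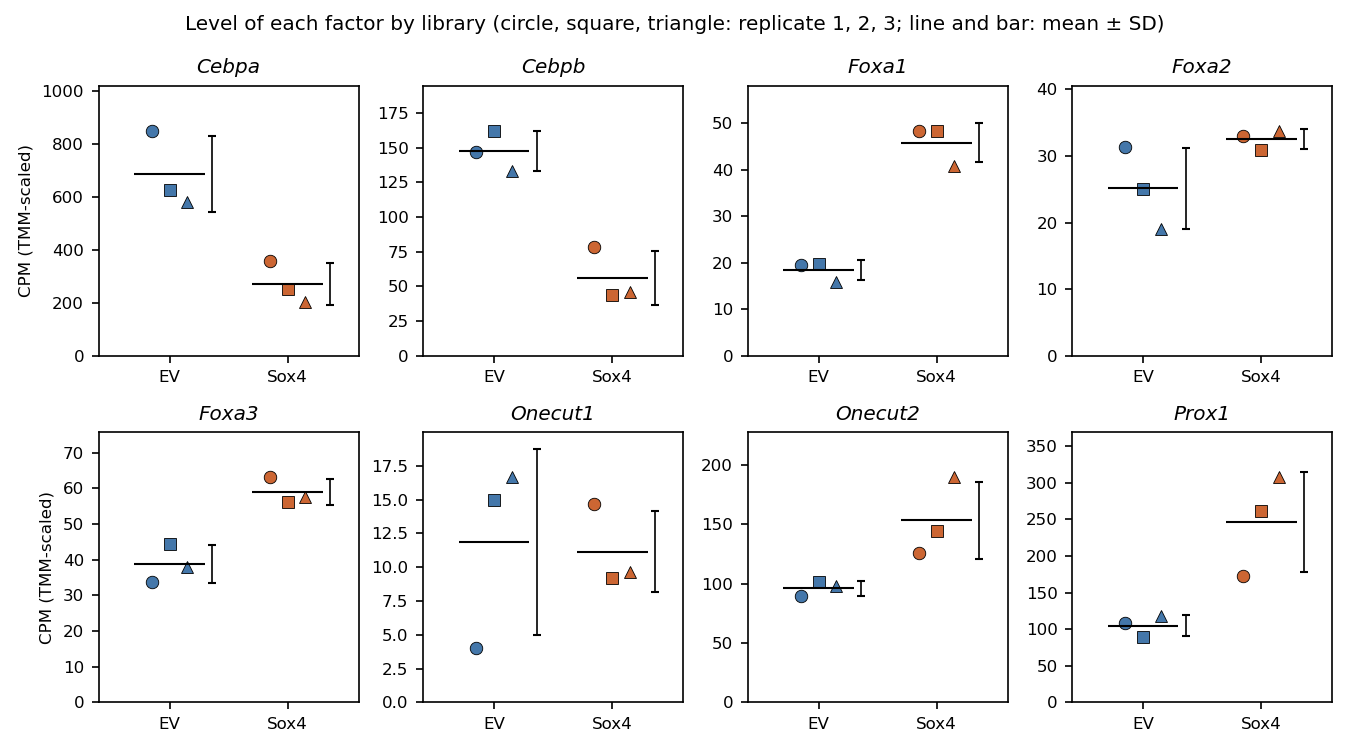
Level of each factor in each library, in CPM of the TMM-scaled library on a linear axis from 0, for EV (blue) and Sox4 (orange). Symbols mark replicates 1 to 3, the horizontal line is the mean and the bar is the SD. Foxa1, Foxa3, Onecut2 and Prox1 lie higher in all 3 Sox4 libraries than in any EV library, Cebpa and Cebpb lie lower, and Foxa2 and Onecut1 overlap, with EV replicate 1 low for Onecut1.

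Promoter windows from RefSeq (GRCm38.p6) were examined for 7 of the factors, with 10 annotated starts. The promoter of Onecut2 was not examined, so the motif counts below leave out this factor, which rose. The 250 bases before each start were searched on both strands for 4 core motifs, ACAAAG (SOX), TTGCNNAA (C/EBP), TGTTTNC (FOXA) and ATCAAT (ONECUT). A SOX match was found in 3 of the 10 windows, for 3 genes (Foxa1, Foxa2 and Prox1), against 16.5% of 32851 promoters. A FOXA match was found in 2 windows (Foxa1 and Prox1), against 17.8% of promoters, and an ONECUT match in 1 window (Foxa2), against 6.72%. No window held the C/EBP match, which 9.56% of promoters hold. The windows are shown for the factors with the largest rises, Foxa1 and Prox1, and for both C/EBP genes that fell. Letters read 5′ to 3′ on the gene's own strand, and capitals mark SOX or FOXA matches.
Foxa1, chr12:57546122-57546361, minus strand: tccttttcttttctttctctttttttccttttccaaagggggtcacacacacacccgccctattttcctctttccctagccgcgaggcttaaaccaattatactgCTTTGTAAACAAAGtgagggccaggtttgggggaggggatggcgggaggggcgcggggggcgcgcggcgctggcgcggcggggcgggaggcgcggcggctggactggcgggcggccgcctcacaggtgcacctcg
Prox1, second start, chr1:190169516-190169765, minus strand: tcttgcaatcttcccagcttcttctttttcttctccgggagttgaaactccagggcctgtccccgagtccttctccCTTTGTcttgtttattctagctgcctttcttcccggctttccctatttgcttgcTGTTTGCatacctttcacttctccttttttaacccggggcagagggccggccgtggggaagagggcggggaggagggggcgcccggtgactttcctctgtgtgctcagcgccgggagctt
Cebpa, chr7:35119043-35119292, plus strand: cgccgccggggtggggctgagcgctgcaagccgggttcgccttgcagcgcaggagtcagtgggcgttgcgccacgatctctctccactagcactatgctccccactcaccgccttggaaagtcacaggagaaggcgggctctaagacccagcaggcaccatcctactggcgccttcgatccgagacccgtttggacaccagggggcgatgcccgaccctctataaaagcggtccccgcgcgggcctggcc
Cebpb, chr2:167688665-167688914, plus strand: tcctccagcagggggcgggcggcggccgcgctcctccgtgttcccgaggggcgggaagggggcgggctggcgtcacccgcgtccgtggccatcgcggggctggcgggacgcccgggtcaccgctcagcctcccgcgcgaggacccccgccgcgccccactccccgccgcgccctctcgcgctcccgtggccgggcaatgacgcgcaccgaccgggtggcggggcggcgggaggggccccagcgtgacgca
In the Foxa1 window 2 SOX matches, beginning at bases -145 and -137 from the start, flank and overlap a FOXA match at -141, so that the capitals form 1 run, CTTTGTAAACAAAG. That run was noticed in this window and then counted, and 1 of the 32851 promoters held it, the one printed. The third SOX match of Foxa1, at -8, lies in the 10 bases that belong to an exon of another Foxa1 transcript and are not printed. Promoters with 3 or more SOX matches made up 0.137% of all. That cut equals the Foxa1 count itself, and 2 of its 3 matches are the ends of the same run, so the share is a description only. In the Prox1 window the SOX match begins at -174 and the FOXA match at -120, and an exon of the antisense gene Gm28172 lies in the same window. The Cebpa, Cebpb, Foxa3 and Onecut1 windows held none of the 4 motifs. The windows at the first Prox1 start and the second Foxa2 start, which are not printed, also held none. A match is a description of letters, and binding was not examined here.

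The C/EBP genes had the lowest log2 fold changes of the 8 factors. Cebpa, which encodes the main C/EBP of the quiescent adult hepatocyte, measured 848, 624 and 581 CPM in EV replicates 1 to 3 and 358, 251 and 204 CPM in Sox4 replicates 1 to 3. Every Sox4 library was below every EV library, and replicate 1 was the highest of its group on both sides. The mean fell from 684 ± 143 to 271 ± 78.6 CPM (log2 change -1.34 with SE 0.29, adjusted p = 9.01e-04).

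Cebpb, the C/EBP that is induced in regeneration and inflammation, measured 147, 162 and 133 CPM in EV and 78.5, 43.6 and 45.7 CPM in Sox4. The groups did not overlap, and Sox4 replicate 1 was again the nearest to the controls. The mean fell from 147 ± 14.3 to 55.9 ± 19.6 CPM (log2 change -1.40 with SE 0.28, adjusted p = 7.33e-04). In the gene models 20.7% of Cebpb exon bases are shared with Tmem189 on the opposite strand, and the strand setting of the counting is not given in the sources used here. Tmem189 had 83 to 138 counts in EV and 31 to 43 in Sox4, against 1837 to 2132 and 853 to 1567 for Cebpb, so the value of Cebpb is uncertain to that extent.

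Cebpa took 82.0% ± 2.98 of the counts of the pair in EV and 83.0% ± 1.94 in Sox4, and the ratio of Cebpa to Cebpb counts had a geometric mean of 4.60 in EV and 4.89 in Sox4. The difference in the log2 ratio was 0.09 (SE 0.21, exact two-sided permutation p = 0.6, adjusted p = 0.75 over 5 ratios, where 0.1 is the smallest p possible), and it turned to -0.04 without EV replicate 2 and to -0.03 without Sox4 replicate 2. The summed level of the pair fell from 832 ± 146 to 327 ± 97.3 CPM.

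The other C/EBP genes were lower or did not pass, beside 26.0% of all tested genes called lower. Of 5 tested paralogues of the factors, 2 were lower, Cebpd, an acute phase C/EBP (log2 fold change -1.09, adjusted p = 0.0188), and Cebpg, which dimerises with other C/EBP proteins (log2 fold change -0.57, adjusted p = 0.00545). Cebpe (-0.22), Ddit3, the stress-induced C/EBP known as CHOP (0.56), and Prox2 (-0.84) did not pass, and Onecut3 had 0 counts in every library. With libraries scaled by total count alone neither Cebpd nor Cebpg passed, Ddit3 passed as higher and Cebpe had an estimate of 0.25, so the direction of this list depends on the scaling. Cebpd also did not pass without EV replicate 2 (adjusted p = 0.0841) or Sox4 replicate 2 (0.0668), Cebpe passed as lower without Sox4 replicate 1 (0.0336), Prox2 without EV replicate 2 (0.0346), and Ddit3 passed as higher without the filter (0.0429) or Sox4 replicate 2 (0.0329).

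Regulators of C/EBP protein or of its partners gave a mixed pattern, with 3 of 6 higher and 1 lower. Over all tested genes 29.0% were called higher and 26.0% lower. Trib1 and Trib2 encode Tribbles pseudokinases, adaptors through which the COP1 ligase degrades C/EBPα. Trib1 measured 98.0 ± 14.7 CPM in EV and 162 ± 46.5 CPM in Sox4 (log2 fold change 0.72, adjusted p = 0.0153), a call lost without EV replicate 1 (adjusted p = 0.0559). Trib2 had 2, 3 and 0 counts in EV and 231, 238 and 211 in Sox4, and it was at least 50.9-fold higher when the control was set to a floor of 3 counts per library. Atf3, a stress-induced bZIP factor that can pair with C/EBP proteins, had 38, 138 and 101 counts in EV and 2546, 1970 and 1479 in Sox4 (log2 fold change 3.87, adjusted p = 4.13e-04). Trib3 was lower (log2 fold change -0.79, adjusted p = 0.0210), a call that was lost under scaling by total count and when EV replicate 3, or replicate 1 or 3 of Sox4, was left out (adjusted p = 0.0669, 0.0634 and 0.0600). Cop1 itself (-0.03) and Atf4 (-0.67) did not pass, although scaling by total count called Cop1 higher (0.44). Atf4 passed as lower with DESeq2 (adjusted p = 0.0152), without the filter (6.48e-05), and without EV replicate 3 (0.0173) or Sox4 replicate 1 (0.0273). The median log2 fold change of the 6 was 0.35, with Trib2 at its fitted value or at its bound, against 0.04 over all tested genes.

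Among genes that C/EBP factors are known to activate, lower calls outnumbered higher ones. All 10 of the acute phase targets passed as lower, with a median log2 fold change of -1.63, against 26.0% of all tested genes. Orm1, which encodes the plasma protein orosomucoid, fell from 988 ± 45.9 to 161 ± 48.0 CPM (log2 change -2.61, adjusted p = 9.22e-06). Crp fell from 425 ± 37.3 to 84.3 ± 8.03 CPM (log2 change -2.33, adjusted p = 1.46e-06), and Hp, which encodes the haemoglobin scavenger haptoglobin, fell from 2966 ± 86.3 to 698 ± 177 CPM (log2 change -2.09, adjusted p = 2.31e-05). Saa1 and Saa2 had the lowest log2 fold changes of the list (-3.50 and -3.58), but these paralogues and the Orm genes share sequence and their counts are uncertain. Under scaling by total count 8 of the 10 still passed as lower, and Saa3 and Fgb did not. Without EV replicate 2 it was 9, as Saa3 did not pass (adjusted p = 0.0569). The list was chosen with earlier results of these data known, so its share is a description and not a test.

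Of the 11 metabolic and secretory targets of C/EBP 6 were lower and 1 was higher, with a median log2 fold change of -0.48. Over all tested genes 26.0% were called lower and 29.0% higher. The 6 lower calls became 3 without EV replicate 2 or 3, 4 without Sox4 replicate 1 or 2, and 9 without Sox4 replicate 3. Tat, tyrosine aminotransferase, fell from 1824 ± 503 to 605 ± 153 CPM (log2 change -1.59, adjusted p = 5.12e-04), and Adh1, Gys2, Alb, Ugt1a1 and F9 had log2 fold changes between -0.95 and -0.44. Hamp, which encodes the iron hormone hepcidin, was the 1 higher gene (log2 fold change 1.16, adjusted p = 0.0467), and its EV replicate 1, with 1337 counts, lay below the 4347 and 4114 of the other controls. That call was lost with limma-voom (adjusted p = 0.0552), without the filter (0.191), and without EV replicate 3 (0.0784) or any of Sox4 replicates 1 to 3 (0.155, 0.0836 and 0.136). Scaling by total count left 1 of these genes lower (Tat) and 1 higher (Hamp), and gave F9 a log2 fold change of 0.03. Factor levels and target levels were measured in the same 6 libraries, and whether one set of changes led to the other was not tested.

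**Figure D2:**
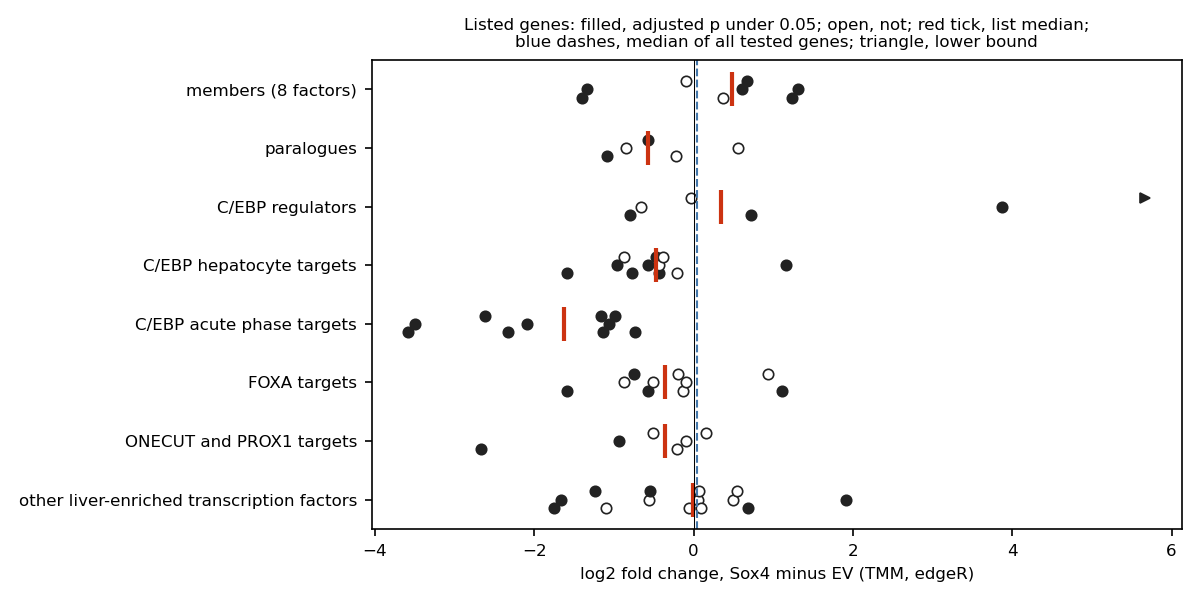
Log2 fold change, Sox4 minus EV, of each tested gene in each list, with the 8 factors at the top. Filled points passed an adjusted p of 0.05, open points did not, red ticks are list medians, the dashed line is the median of all tested genes (0.04) and the triangle is Trib2 at its lower bound. The 10 acute phase targets all lie below 0, with a median of -1.63, and 2 of the 10 FOXA targets lie above 0.

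Of the 3 FOXA genes Foxa1 and Foxa3 rose and Foxa2 did not pass. Foxa1 measured 19.6, 19.7 and 15.9 CPM in EV and 48.3, 48.3 and 40.8 CPM in Sox4. All Sox4 libraries exceeded all EV libraries by more than the whole range within either group. The mean rose from 18.4 ± 2.15 to 45.8 ± 4.29 CPM (log2 change 1.32 with SE 0.13, adjusted p = 3.25e-05). This gene is a pioneer factor of the embryonic endoderm and of the biliary tree. With sign counted, it had the highest log2 fold change among the 8 factors. The exceptions were without EV replicate 3 or without Sox4 replicate 1, where Prox1 exceeded it (1.31 against 1.21, and 1.44 against 1.27). In size, the falls of Cebpb (-1.40) and Cebpa (-1.34) were larger than the rise of Foxa1.

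Foxa2, which acts with Foxa1 in liver specification and bile acid homeostasis, measured 31.3, 25.1 and 19.1 CPM in EV and 32.9, 30.9 and 33.8 CPM in Sox4. EV replicate 1 lay among the Sox4 libraries, and the other controls lay below them. The log2 fold change was 0.37 (SE 0.21, adjusted p = 0.0869), which did not pass. It passed as higher without EV replicate 1 (0.54, adjusted p = 0.0189), with scaling by total count (0.84, adjusted p = 0.00201) and without the filter on low counts (0.41, adjusted p = 0.0210).

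Foxa3, the FOXA gene most expressed in adult liver, measured 33.8, 44.3 and 38.1 CPM in EV and 63.0, 56.1 and 57.5 CPM in Sox4. No libraries overlapped. The mean rose from 38.7 ± 5.29 to 58.9 ± 3.66 CPM (log2 change 0.60 with SE 0.12, adjusted p = 0.00250). No stretch of 50 bases in the exons of the 3 FOXA genes occurs in another gene's exons, so the paralogues were counted apart.

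The makeup of the family shifted toward Foxa1. Its share of FOXA counts was 22.3% ± 0.70 in EV (21.8% to 23.1%) and 33.4% ± 2.38 in Sox4 (30.9% to 35.7%). Foxa2 went from 30.4% ± 5.75 to 23.7% ± 1.57, and Foxa3 from 47.3% ± 6.45 to 42.9% ± 1.24. The ratio of Foxa1 to Foxa2 counts had a geometric mean of 0.743 in EV and 1.40 in Sox4 (log2 difference 0.92, SE 0.17), and that of Foxa1 to Foxa3 0.476 and 0.777 (log2 difference 0.71, SE 0.16). Neither ratio overlapped between the groups, and each reached the smallest p that 3 against 3 libraries allow (exact two-sided permutation p = 0.1, adjusted p = 0.25), so neither can pass 0.05. The ratio of Foxa2 to Foxa3 overlapped (log2 difference -0.21, SE 0.27, exact permutation p = 0.8). These shares and ratios are of counts within a library, not corrected for gene length, and they do not depend on how libraries were scaled. The summed FOXA level was 82.3 ± 8.28 CPM in EV and 137 ± 6.29 CPM in Sox4.

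**Figure D3:**
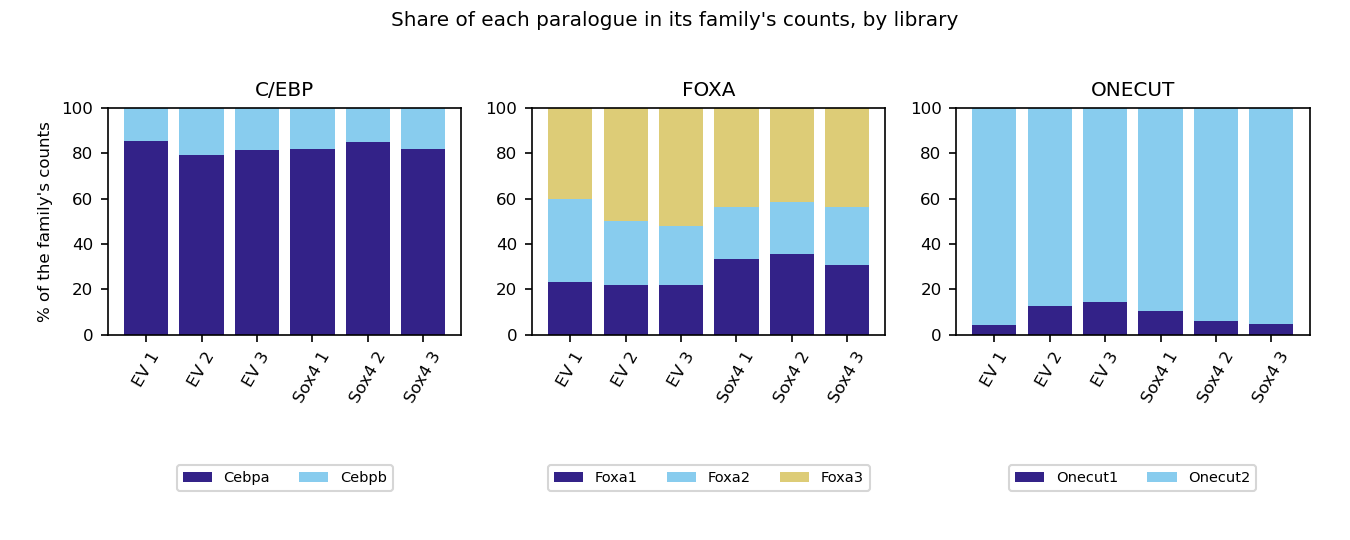
Share of each paralogue in the counts of its family, in percent, for the 3 EV and the 3 Sox4 libraries. The Foxa1 share is 21.8% to 23.1% in EV and 30.9% to 35.7% in Sox4, whereas the Cebpa and Onecut1 shares overlap between the groups.

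Of 10 genes known as FOXA targets 1 was higher, 3 were lower and 6 did not pass. Over all tested genes 29.0% were called higher and 26.0% lower, and nothing is read from these counts. The estimate was above 0 for 2 of the 10 (Afp and Igfbp1), with a median log2 fold change of -0.36. Afp, the fetal serum protein, was the higher gene (3.74 ± 1.05 CPM in EV and 8.11 ± 4.32 in Sox4, log2 fold change 1.11, adjusted p = 0.0325), and its libraries overlapped. The call was lost with limma-voom (adjusted p = 0.0787) and when EV replicate 1 (0.105), EV replicate 2 (0.104) or the third Sox4 library (0.127, with an estimate of 0.60) was left out. Ttr, the thyroxine carrier long studied as a FOXA target, measured 5369 ± 578 CPM in EV and 5045 ± 518 in Sox4 (log2 fold change -0.09, adjusted p = 0.663), and its estimate was 0.38 under scaling by total count. Trf, transferrin, was lower (log2 fold change -0.74, adjusted p = 0.00370), a call that scaling by total count removed. Alb and Tat, the other two that fell, are in the C/EBP list as well.

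The ONECUT genes behaved differently from each other. Onecut2, the paralogue of HNF6, measured 89.3, 101 and 97.8 CPM in EV and 126, 145 and 190 CPM in Sox4. The groups did not overlap, and the spread was wider in Sox4. The mean rose from 96.1 ± 6.17 to 154 ± 32.6 CPM (log2 change 0.68 with SE 0.18, adjusted p = 0.00440).

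Onecut1, which encodes HNF6 itself, measured 4.01, 14.96 and 16.6 CPM in EV and 14.6, 9.19 and 9.63 CPM in Sox4. EV replicate 1, with 52 counts against 197 and 229, was the lowest of the 6 libraries, and the other controls were the highest. The log2 fold change was -0.09 (SE 0.68, adjusted p = 0.888). Without EV replicate 1 it was -0.52 (adjusted p = 0.0824), and its sign changed in 8 of 14 alternatives, so these libraries do not fix a direction for Onecut1. In the gene models 52.3% of the 50-base stretches in Onecut1 exons also belong to the lincRNA Gm20649 on the same strand, which had 0 counts in all libraries, and how the counting treated reads from the shared part is not given in the sources used here.

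The ratio of Onecut1 to Onecut2 counts was 0.105 in EV and 0.0722 in Sox4 as geometric means (log2 difference -0.53, SE 0.70, exact permutation p = 0.5, adjusted p = 0.75), with overlap between the groups. Without EV replicate 1 this log2 difference was -1.14.

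Prox1 measured 108, 89.1 and 118 CPM in EV and 173, 261 and 307 CPM in Sox4. Every Sox4 library was above every EV library, with Sox4 replicate 1 the nearest to the controls. The mean rose from 105 ± 14.5 to 247 ± 68.3 CPM (log2 change 1.24 with SE 0.27, adjusted p = 8.45e-04). The antisense gene Prox1os shares 1.59% of Prox1 exon bases and did not pass (log2 fold change -0.51, adjusted p = 0.119).

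Of 6 genes known to be bound by ONECUT factors or PROX1, 2 were lower and 4 did not pass, with a median log2 fold change of -0.36, beside 26.0% of all tested genes called lower. The count of lower genes was 1 without any single EV replicate or without Sox4 replicate 2, and 4 without Sox4 replicate 3. Pfkfb1, the liver form of the enzyme that sets fructose 2,6-bisphosphate, had 540, 342 and 535 counts in EV and 82, 99 and 148 in Sox4 (log2 fold change -2.67, adjusted p = 3.11e-05).

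Ratios between factors inside single libraries, which no scaling affects, show how unequally these genes changed but not in which direction each moved. Cebpa had 31.8 to 43.3 counts for each Foxa1 count in EV and 4.999 to 7.41 in Sox4. For each Prox1 count there were 4.94 to 7.87 Cebpa counts in EV and 0.665 to 2.07 in Sox4. Cebpb had 7.49 to 8.39 counts for each Foxa1 count in EV and 0.903 to 1.63 in Sox4. These pairs were chosen after the changes of single genes were known, and no test was run on them.

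On a scale corrected for length (CPM per kilobase of exon in GENCODE M21 gene models), the order in EV was Cebpa (260 ± 54.4), Cebpb (97.9 ± 9.48), Foxa3 (19.0 ± 2.60), Prox1 (12.5 ± 1.73), Foxa2 (10.6 ± 2.57), Onecut2 (5.92 ± 0.38), Foxa1 (5.52 ± 0.64) and Onecut1 (2.88 ± 1.67). Prox1 and Foxa2, and Onecut2 and Foxa1, lay within their spread of each other. In Sox4 the order of levels was Cebpa (103 ± 29.8), Cebpb (37.2 ± 13.0), Prox1 (29.4 ± 8.14), Foxa3 (28.9 ± 1.80), Foxa1 (13.8 ± 1.29), Foxa2 (13.7 ± 0.62), Onecut2 (9.46 ± 2.01) and Onecut1 (2.71 ± 0.74). There Cebpb, Prox1 and Foxa3 were not separated beyond their spread, nor were Foxa1 and Foxa2. Cebpa had the highest level per kilobase in every library, and Prox1 lay above Cebpb in Sox4 replicates 2 and 3. Lengths come from another genome build and from annotated exons, some of which hepatocytes may not use, so the order is approximate.

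How libraries are scaled affects the size of every change. Scaling by total count alone moved the median over all tested genes from 0.04 to 0.51 (log2) and the share of higher genes among those that passed from 52.7% to 79.9%. Against that shifted median, Cebpa (-0.87) and Cebpb (-0.93) still passed as lower, and Foxa1 (1.79), Prox1 (1.71), Onecut2 (1.15) and Foxa3 (1.07) as higher. All 6 kept their direction and passed in each of the 14 alternatives, which also changed the test, the filter and the libraries included.

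**Figure D4:**
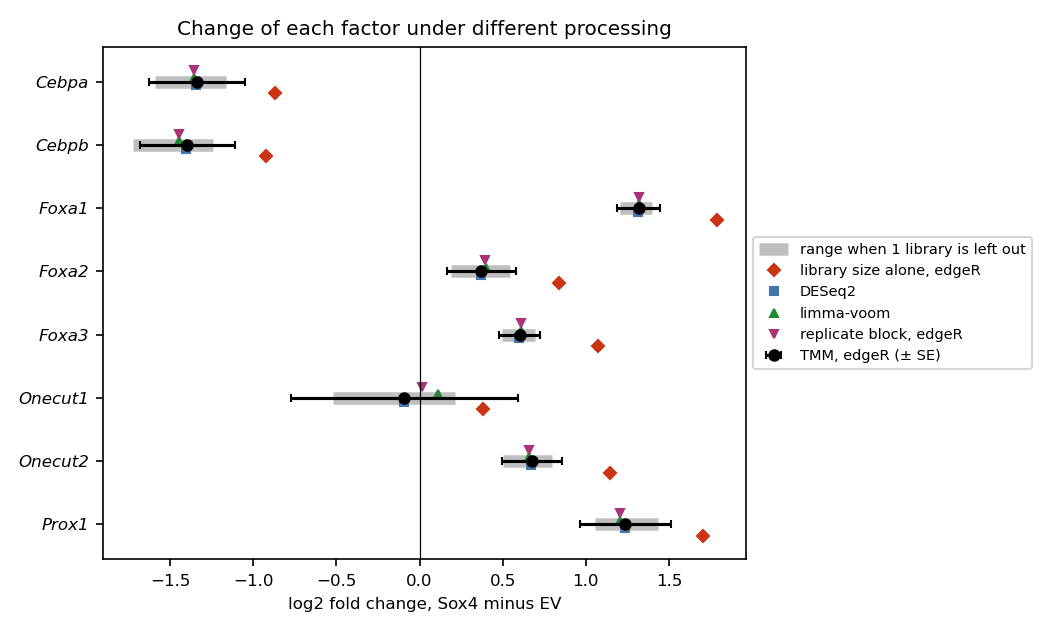
Log2 fold change of each factor, Sox4 minus EV. Black circles with bars are the edgeR estimate on TMM-scaled counts ± SE, grey bands span the values when 1 library is left out, and coloured symbols are other processing choices. Scaling by total count alone (diamonds) lies to the right of the other estimates for every factor. Onecut1 crosses 0, and the 6 factors that passed stay on one side.

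Profiles over the 6 libraries were compared for the 9024 genes averaging 100 or more counts, by the root mean square difference in log2 CPM after each gene's EV mean was subtracted. Nearest to Foxa1 were Pbxip1 (0.05), Idh2 (0.08) and Peli1 (0.09). Slc25a1 (0.08), Ebp (0.10) and Tle2 (0.11) were nearest to Cebpa, and Hagh (0.09), Nudt9 (0.10) and Acy1 (0.10) to Cebpb. Nearest to Prox1 were Fam135a (0.11), Stab1 (0.11) and Skil (0.13), and Onecut1 had no gene closer than 0.31 (Tgtp1). The list is a description of likeness only.

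Some of these factors are also made by other liver cells, such as Foxa1 and ONECUT genes in cholangiocytes, Prox1 in lymphatic endothelium and Cebpb in macrophages. The summed level of 8 cholangiocyte markers was 10.1 to 21.9 CPM in EV libraries and 49.9 to 59.8 in Sox4 libraries, and all 8 had the higher mean in Sox4. Spp1 alone made up most of the Sox4 sums (35.2 to 41.4 CPM, against 4.02 to 6.83 in EV). Krt7, Krt19, Cftr, Tspan8 and Cldn7 had too few counts to be tested. Epcam (log2 fold change 4.05) and Spp1 (2.89) passed as higher, and Sox9 (0.23) did not pass. The study reported EPCAM protein in EGFP-marked cells derived from hepatocytes that received Sox4. By its account this protein became strong only at a later time than the collection of the cells used here. The study did not see EGFP-marked cells that also carried KRT19 protein. Whether hepatocytes or cholangiocytes made these markers here was not tested. Krt7, Krt19 and Tspan8 were at 0 in every EV library. For 8 Kupffer cell markers the sum was 10.9 to 24.6 CPM in EV, against 23.5 to 58.0 in Sox4, and for 8 endothelial markers 17.5 to 29.4 and 14.8 to 37.8. The sum of 7 stellate markers was 8.32 to 43.2 CPM in EV, against 72.7 to 134 in Sox4, and most of it was Reln alone (7.09 to 37.5 CPM in EV, 50.8 to 126 in Sox4). The rise was not limited to Reln, as all 7 stellate markers had the higher mean in Sox4. Dcn had a log2 fold change of 2.14, near that of Reln (2.13), but did not pass (adjusted p = 0.0504). The sum of 3 lymphatic markers was 0.848 to 2.69 CPM in EV, against 2.06 to 5.02 in Sox4, with Pdpn and Ccl21a at 0. The mean was higher in Sox4 for all 8 Kupffer markers and for 7 of the 8 endothelial markers. Within each group, replicate 1 had the lowest Kupffer, endothelial and lymphatic sums. Prox1 was likewise lowest in replicate 1 within Sox4, but within EV it was lowest in replicate 2. Leukocyte markers summed to 0.693 to 2.20 CPM in EV, against 1.45 to 4.65 in Sox4, and erythroid markers to under 1 CPM in every library. The part of these cells in the changes was not tested, and in bulk samples fewer cells of a type and less RNA per cell cannot be told apart.

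Among 14 other liver-enriched transcription factors outside the nuclear receptors, 2 were higher, 4 lower and 8 did not pass, with a median log2 fold change of -0.00. These counts stand beside 29.0% of all tested genes called higher and 26.0% called lower, or 55.1% in either direction. Gata6, a GATA factor of early endoderm and the liver bud, rose from 8.73 ± 1.02 to 33.0 ± 11.8 CPM (log2 change 1.92, adjusted p = 1.67e-04), and Zbtb20, a repressor of Afp, rose from 117 ± 23.8 to 188 ± 27.3 CPM (log2 change 0.68, adjusted p = 0.00711). Klf15, a glucocorticoid-induced regulator of amino acid use, fell from 208 ± 27.1 to 62.0 ± 5.57 CPM (log2 change -1.75, adjusted p = 7.09e-06). Mlxipl, which encodes the glucose sensor ChREBP (log2 fold change -1.24), Atf5 (-1.67) and Creb3l3 (-0.55) were also lower, and Creb3l3 did not pass under scaling by total count, which called 6 higher and 3 lower. The 6 of 14 that passed became 9 under scaling by total count, without the filter and without EV replicate 1, and nothing is read from this share.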

How the data were processed

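Hepatocyte RNA from 3 EV and 3 Sox4 mice was profiled by RNA-seq. Per the labels and the study's methods, the authors aligned reads to GRCm39 with STAR 2.7.10b, assigned them with featureCounts 2.0.1 and deposited raw counts per gene. The annotation release, strand and multi-mapping settings are not given in the sources used here. The authors also deposited a normalised signal, the counts divided by DESeq2 median-of-ratios size factors. The ratio of raw to deposited values was constant within each library and equal to its size factor. In each library 100% of the non-zero deposited values were whole multiples of the smallest, within rounding.

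Counts were analysed in R 4.3.3. Genes were kept with filterByExpr (minimum count 10, total 15), scaled by TMM and tested with edgeR 4.0.16 (robust quasi-likelihood F test, no covariate, Benjamini-Hochberg over 12691 genes). Adjusted p-values come from this fit unless another test is named. SEs are of the difference in mean log2 CPM (prior count 2). Alternatives used DESeq2 1.42.0, limma 3.58.1, other scaling and filters, a replicate block and leaving out each library. Log2 count ratios (0.5 added to each count) were compared by exact permutation tests. A count of 3, or 0.150 to 0.231 CPM depending on the library, was the floor, which covers counting error only. Scripts were tested on simulated data.

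The factors and gene lists were chosen with earlier results of these data known; targets, regulators and markers come from general knowledge. Named genes were the factors, members of those lists, overlapping genes and the 3 most similar profiles per factor. The rule for the set speaks of 10 genes, of which 8 are named and reported here. A listed gene is counted in its list's totals but is not reported here. Gene models are GENCODE M21 and promoters RefSeq, both on GRCm38, so no gene coordinates are given for the GRCm39 counts.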

Additional observations from a re-analysis of the deposited data

How the results depend on the processing

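Each alternative changed 1 choice and what goes with it: DESeq2 and limma on the deposited values brought their own scaling, and leaving out a library also repeated the filter (12949 to 13255 genes tested). The number of genes that passed was 6990 with the TMM-scaled edgeR test and 5937 to 8092 over the 14 alternatives, or 6027 to 7269 when 1 library was left out. Of the 8 factors, 6 passed, and 6 or 7 did so when 1 library was left out. The seventh was always Foxa2, under scaling by total count, without the low-count filter, with the replicate block and without EV replicate 1.

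Onecut1 (log2 fold change -0.09) turned positive under scaling by total count (0.38), limma-voom (0.11), limma on the deposited values (0.12) and the replicate block (0.017), and it ranged from -0.52 to 0.21 when 1 library was left out, being above 0 without replicate 2 or 3 of either group. Scaling by total count also turned Cebpe (0.25), Cop1 (0.44), F9 (0.032) and Ttr (0.38). Cop1 was also above 0 without the filter (0.0096). When 1 library was left out Cop1 ranged from -0.14 to 0.038 and Cebpe from -0.70 to 0.012. The cause was not tested.

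When 1 library was left out, the log2 ratio difference ranged from -0.036 to 0.26 for Cebpa to Cebpb, below 0 without replicate 2 of either group, and from -0.39 to 0.054 for Foxa2 to Foxa3, above 0 without EV replicate 1. It ranged from 0.80 to 1.03 for Foxa1 to Foxa2, from 0.62 to 0.85 for Foxa1 to Foxa3 and from -1.14 to -0.18 for Onecut1 to Onecut2.

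Same-numbered EV and Sox4 libraries deviated from their group means with correlations of 0.27, -0.09 and 0.13. For pairs with different numbers the correlations were -0.27 to 0.18. The labels state no pairing, and whether same-numbered samples shared a step of preparation was not tested. With the number as a block 7362 genes and 7 factors passed (Foxa2 at 0.39, adjusted p = 0.0479). Among the regulators the block lost Trib1 (0.69, adjusted p = 0.0676) and called Atf4 lower (-0.66, adjusted p = 0.00210), and the paired ratio differences were 0.09 for Cebpa to Cebpb, 0.92 for Foxa1 to Foxa2, 0.71 for Foxa1 to Foxa3, -0.21 for Foxa2 to Foxa3 and -0.53 for Onecut1 to Onecut2. With 3 animals per group some changes near 2 SEs, such as that of Foxa2, did not pass.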
